A study of Mus musculus with 188 samples.

Results

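The cytosolic thioredoxin and peroxiredoxin system was followed in bulk mRNA of mouse brain slice cultures through the transcripts of 10 genes: Txn1, Txnrd1, Txnip, Srxn1 and Prdx1 to Prdx6, of which Prdx3 and part of Prdx5 belong to mitochondria and Prdx4 to the endoplasmic reticulum. The genes were chosen by symbol, and all 10 were found by Ensembl identifier among the 25655 genes listed in batch 1 and the 25528 listed in batches 2 and 3. All 10 passed the filter on low counts in both sets. Coronal slices of whole brain from male and female C57BL/6J mice aged 6 to 8 weeks, 2 to an insert, were kept for 7 days in culture and then exposed for 24 h or 48 h. In batch 1, control slices (0 µM) and slices given heme-albumin at 12.5, 50, 200 or 400 µM, or heme bound to hemopexin (hemeHpx) at 200 µM, were collected at 24 h with 10 libraries a group. In batches 2 and 3, control slices, hemoglobin (Hb) at 200 and 400 µM, the hemoglobin-haptoglobin complex (HbHp) at 200 and 400 µM and haptoglobin alone (Hp) at 400 µM were collected at 24 h and at 48 h, with 4 to 12 libraries a group. The exposing proteins were human and the slices were of mouse origin. Of 188 libraries, 167 had a group from the labels and entered the comparisons. The labels do not tie libraries to single mice, so p-values measure the spread between these libraries. Library names also hold a code of a letter and a number, which libraries of different treatments share. The reported fits left this code out and took the libraries as independent.

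In this system thioredoxin reduces disulfide bonds of its client proteins, and thioredoxin reductase, a selenoprotein encoded by Txnrd1 for the cytosolic form, reduces thioredoxin again with NADPH. Peroxiredoxins reduce hydrogen peroxide and organic peroxides with a reactive cysteine, and most of them are recycled by thioredoxin. When this cysteine is overoxidised in the typical peroxiredoxins, sulfiredoxin (Srxn1) repairs it. The thioredoxin-interacting protein (Txnip) is an arrestin-like protein that binds thioredoxin and limits it, and that restrains glucose uptake. Txnrd1, Srxn1, Prdx1 and Txn1 are known targets of the transcription factor NRF2, which binds antioxidant response elements and is released when electrophiles or oxidants modify its partner KEAP1. Txnip is known as a target of the glucose-sensing factors of the MondoA and ChREBP family.

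The promoters of the members that moved most, and of Txnip, are printed here because they hold letter matches to the motifs searched. Each is a RefSeq window on GRCm38.p6 from 250 bases before to 50 bases after the annotated start, and 9 of the 10 genes had at least 1 such window, 11 windows in all. Capitals mark matches, read on both strands, to the antioxidant response element core TGACNNNGC, to the AP-1 type element TGAGTCA, or to 2 copies of CACGNG set 5 bases apart (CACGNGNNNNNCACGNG, the carbohydrate response type).
Srxn1 (chr2:152105274-152105573, + strand): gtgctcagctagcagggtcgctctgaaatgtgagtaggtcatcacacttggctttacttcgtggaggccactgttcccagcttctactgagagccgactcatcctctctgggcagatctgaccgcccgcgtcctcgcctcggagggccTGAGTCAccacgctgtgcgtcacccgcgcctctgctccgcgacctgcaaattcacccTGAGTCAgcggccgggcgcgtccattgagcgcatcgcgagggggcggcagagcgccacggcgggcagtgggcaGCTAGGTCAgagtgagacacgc
Prdx1 (chr4:116685349-116685648, + strand): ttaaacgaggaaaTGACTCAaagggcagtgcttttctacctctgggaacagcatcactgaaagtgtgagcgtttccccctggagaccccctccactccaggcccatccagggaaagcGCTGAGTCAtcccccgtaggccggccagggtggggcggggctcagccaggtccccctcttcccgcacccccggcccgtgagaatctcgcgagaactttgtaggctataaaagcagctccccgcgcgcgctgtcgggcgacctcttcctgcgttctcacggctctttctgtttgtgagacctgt
Txnip (chr3:96557707-96558006, + strand): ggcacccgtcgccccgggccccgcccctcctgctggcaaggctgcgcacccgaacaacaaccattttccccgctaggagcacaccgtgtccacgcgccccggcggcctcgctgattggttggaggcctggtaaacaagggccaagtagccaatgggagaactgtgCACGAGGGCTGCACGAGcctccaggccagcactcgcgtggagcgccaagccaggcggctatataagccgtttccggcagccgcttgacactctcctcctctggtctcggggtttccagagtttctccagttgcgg

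The Srxn1 window held TGAGTCA at positions -102 to -96 and -45 to -39 from the start and the antioxidant core on the minus strand at 29 to 37. The Prdx1 window held the antioxidant core on the minus strand at -133 to -125, overlapping TGAGTCA at -131 to -125, and a further AP-1 type match at -237 to -231. The core was also found in the second of the 3 Txnrd1 windows, at -92 to -84 on the minus strand, and in no window of Txn1, Txnip or the other peroxiredoxins that had a window. Among 32851 RefSeq windows of the same length, 12.4% held TGACNNNGC and 5.2% held TGAGTCA, beside 3 and 2 of the 11 member windows. The Txnip window was 1 of 16 (0.0487%) with the paired CACGNG element, at -85 to -69. The matches are a description of these letters and not of binding.

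Positions are those of the GENCODE annotation of GRCm38, whereas the counts were made on GRCm39. Among the recycling genes, Txn1 lies at chr4:57943373-57956411, Txnrd1 at chr10:82833951-82897712, Srxn1 at chr2:152105516-152111376 and Txnip at chr3:96557957-96561883. The peroxiredoxins lie at chr4:116685544-116700822 (Prdx1), chr8:84969587-84974834 (Prdx2), chr19:60864051-60874556 (Prdx3), chrX:155323918-155340754 (Prdx4), chr19:6906697-6910106 (Prdx5) and chr1:161240112-161251219 (Prdx6). Txnrd1 overlaps Eid3 and Gm47073, Prdx2 overlaps Junb and Rnaseh2a, and Prdx5 overlaps Trmt112. The strand setting of the counting is not given in the sources used here, so reads of these overlapping genes may not be told apart from those of the neighbours.

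Libraries of batch 1 held 11038484 to 44199060 counts, those of batch 2 32626873 to 54174784 and those of batch 3 15587938 to 38839614. The lowest count of any of the 10 genes in a library with a group was 413 and the highest 102819. Library names of batches 2 and 3 carry a round, E1 or E2, whose meaning the labels do not give. Every HbHp library was of batch 3 and round E2, while only 3 of the 10 control libraries at 24 h and 2 of the 9 at 48 h were of that round. Only 1 control library at 24 h and 1 at 48 h was of both batch 3 and round E2. Between the rounds 68.0% of 16473 genes differed. Round and batch were therefore terms of the fit, and values within round E2 alone are given beside the main HbHp results. Those values still set HbHp libraries of batch 3 against controls of both batches, with the batch as a term. How the HbHp results moved with Hp of round E1 set apart is given with the Hp results. Markers of neurons, astrocytes, oligodendrocytes, microglia and endothelium were all detected, and none of 5 erythroid markers passed the filter, with a highest summed level of 0.36 CPM. All 5 microglial markers were higher in round E2 than in E1, as were 36.1% of all genes. All 5 oligodendrocyte, 5 of 6 neuron and 4 of 5 endothelial markers were higher too, with 1 neuron and 1 endothelial marker lower. Of the 5 astrocyte markers, 2 were higher and 2 lower. In these bulk samples fewer cells of a type and less RNA per cell cannot be told apart. Library 1 of HbHp 200 µM at 48 h stood apart, with the group's highest level for every one of the 10 genes other than Txnrd1, by a narrow margin for Prdx6. Values without it are given for Prdx1 against control, Txn1 against Hb and the time difference of Prdx1. The other results of this group are given with it.

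In control slices the transcripts of Prdx6 and Prdx1 were the most abundant of the 10 per kilobase of exon. Levels are given as CPM, read counts scaled to library size by the TMM method, with the SD over libraries. In batch 1 controls, Prdx6, which reduces peroxides with glutathione and is known from astrocytes, stood at 234 ± 29.9 CPM per kilobase (n = 10) and Prdx1, the cytosolic enzyme of glia, at 176 ± 25.6. Txn1 followed at 85.8 ± 6.37, Prdx2, the cytosolic form known from neurons, at 64.7 ± 7.76 and Prdx5, an atypical form of mitochondria, peroxisomes and cytosol, at 50.4 ± 10.5. Prdx3, the mitochondrial form, and Txnrd1 did not differ beyond their spread, at 40.7 ± 3.69 and 40.7 ± 2.98. Srxn1 stood at 27.2 ± 3.76 and Txnip at 24.3 ± 6.23, which also overlapped, and Prdx4, the form of the secretory pathway, was lowest at 18.7 ± 1.35. In the 24 h controls of batches 2 and 3 the order had Prdx1 first, at 205 CPM per kilobase against 164 for Prdx6, and Srxn1 stood at 47.8. The batches were scaled and fitted apart, so the levels of one were not tested against the other. Between 24 h and 48 h in controls none of the 10 genes passed the test, where 4.50% of all genes did.

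Heme-albumin, a form in which heme can leave its carrier, was compared with control slices at 4 doses to ask how the system answered to rising heme. Srxn1 was the member with the largest change at each dose. The control libraries lay at 62.1 to 95.01 CPM (median 74.8, n = 10). At 12.5 µM the libraries lay at 89.6 to 121 CPM (median 103, n = 10), and at 50 µM at 110.1 to 159 CPM (median 128, n = 10). From 50 µM upward no treated library fell within the range of the controls. At 200 µM the libraries lay at 144 to 238 CPM (median 181, n = 10) and at 400 µM at 186 to 329 CPM (median 266, n = 10). The log2 fold change over control, given with its standard error, was 0.43 ± 0.09, adjusted p = 0.0259 at 12.5 µM, 0.77 ± 0.09, adjusted p = 3.35e-08 at 50 µM, 1.25 ± 0.09, adjusted p = 2.71e-16 at 200 µM and 1.76 ± 0.09, adjusted p = 1.13e-22 at 400 µM, the last a 3.40-fold higher level. The call at 12.5 µM was lost when counts were corrected for GC content and length (adjusted p = 0.137). Between 200 and 400 µM Srxn1 rose again, by 0.51 ± 0.09, adjusted p = 3.71e-04, where 1.27% of all genes passed between these doses.

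Txnrd1 and Txn1, the reductase and its substrate, rose as well, with the reductase ahead. Txnrd1 libraries lay at 244 to 317 CPM (median 284, n = 10) in controls, 402 to 502 CPM (median 436, n = 10) at 200 µM and 439 to 624 CPM (median 528, n = 10) at 400 µM. The treated libraries at both doses lay above every control library. The log2 fold change was 0.36 ± 0.06, adjusted p = 2.45e-05 at 50 µM, 0.61 ± 0.06, adjusted p = 3.75e-12 at 200 µM and 0.88 ± 0.06, adjusted p = 9.91e-19 at 400 µM, and 0.27 ± 0.06, adjusted p = 0.00534 between 200 and 400 µM. At 12.5 µM it was 0.20 ± 0.06, adjusted p = 0.48. Txn1 moved less: its libraries lay at 79.8 to 101 CPM (median 90.4, n = 10) in controls and 104 to 148 CPM (median 116, n = 10) at 400 µM, without overlap. Its log2 fold change was 0.26 ± 0.06, adjusted p = 0.00114 at 200 µM and 0.39 ± 0.06, adjusted p = 2.00e-07 at 400 µM. At 50 µM it was 0.18 ± 0.06, adjusted p = 0.184.

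Prdx1 was the peroxiredoxin that rose. Its libraries lay at 404 to 677 CPM (median 542, n = 10) in controls, 667 to 1012 CPM (median 762, n = 10) at 50 µM, 746 to 1131 CPM (median 855, n = 10) at 200 µM and 817 to 1297 CPM (median 1083, n = 10) at 400 µM. The groups at 200 and 400 µM lay wholly above the controls, and at 50 µM 9 of 10 libraries did. The log2 fold change was 0.61 ± 0.09, adjusted p = 2.45e-05 at 50 µM, 0.76 ± 0.09, adjusted p = 2.80e-08 at 200 µM and 1.01 ± 0.10, adjusted p = 1.16e-12 at 400 µM. Prdx6 was the member that fell, at 400 µM: its libraries lay at 745 to 1075 CPM (median 998, n = 10) against 941 to 1336 CPM (median 1161, n = 10) in controls, and the ranges overlapped. Its log2 fold change was -0.23 ± 0.07, adjusted p = 0.0125 at 400 µM and -0.19 ± 0.07, adjusted p = 0.0799 at 200 µM. Astrocyte markers, among whose cells Prdx6 is known, were lower beside it, with 3 of 5 called lower at 400 µM, where 14.3% of all genes were, and a summed median of 6667 CPM against 9357 in controls. Their part in the Prdx6 result was not tested. Prdx2, Prdx3, Prdx4 and Prdx5 passed the test at none of the 4 doses, with log2 fold changes between -0.13 and 0.16.

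Counted together, 1 of the 10 genes passed at 12.5 µM, 3 at 50 µM, 4 at 200 µM and 5 at 400 µM, where the shares of all 15554 genes tested were 0.0450%, 0.463%, 13.6% and 29%. Genes lying wholly above the controls made up 0.0772% of all genes at 50 µM, 0.553% at 200 µM and 1.37% at 400 µM, where 1, 3 and 4 of the 10 did. The median log2 fold change of the 10 stayed low, at 0.04 at 200 µM and 0.11 at 400 µM beside -0.01 for all genes at both doses, and the genes that rose were Srxn1, Prdx1, Txnrd1 and Txn1. At 200 µM 4 of 5 microglial markers were called lower, where 6.60% of all genes were, with a summed median of 52 CPM against 90.3 in controls, and their part in these results was not tested.

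**Figure D1:**
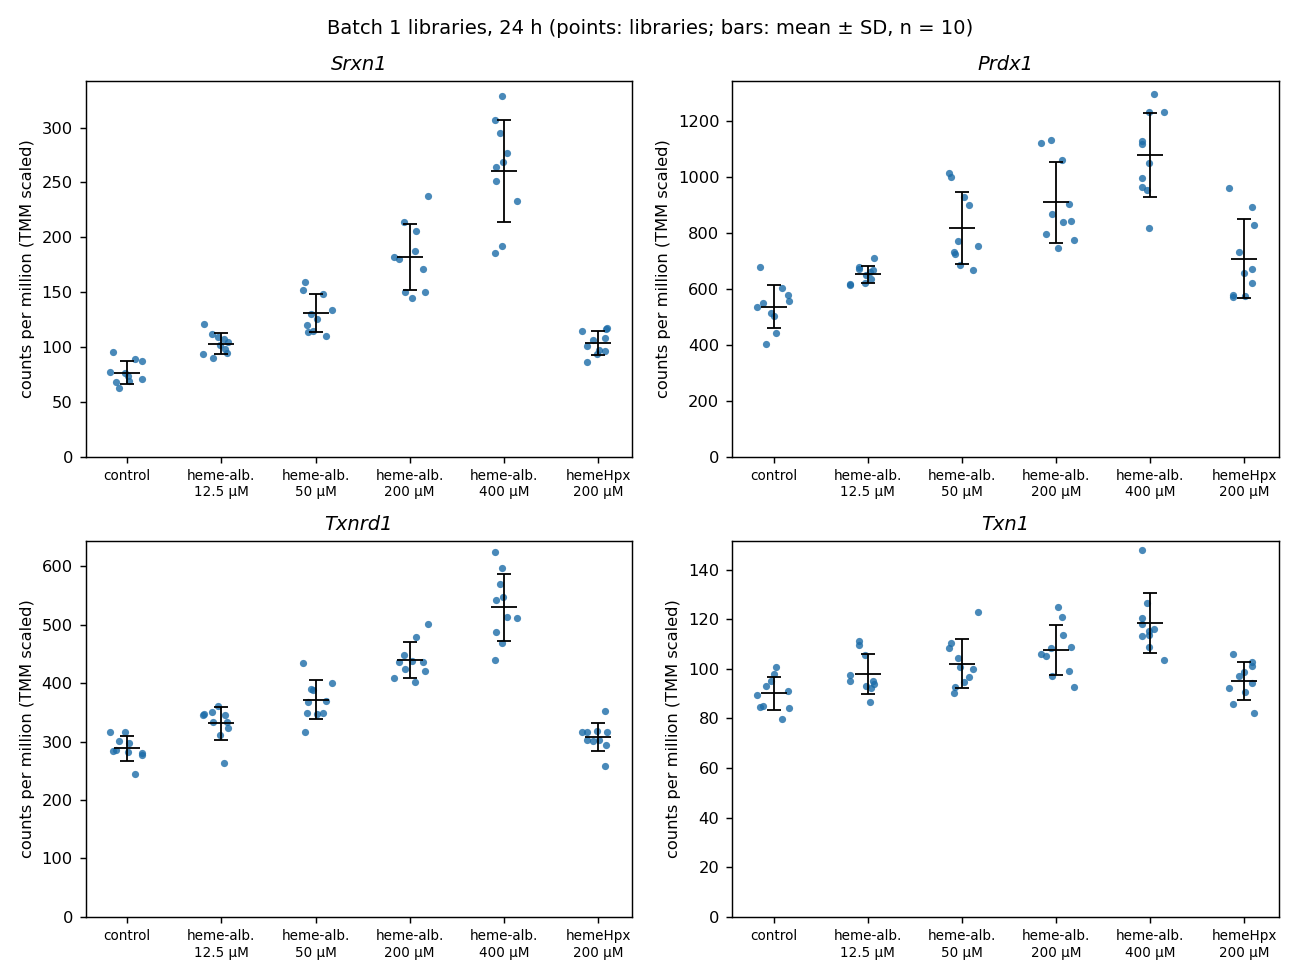
CPM (TMM scaled, linear axes from 0) of Srxn1, Prdx1, Txnrd1 and Txn1 in the 60 libraries of batch 1, by treatment and dose in µM at 24 h. Points are libraries and bars the mean ± SD of 10. Srxn1 rises from a mean of 76.6 in controls to 260.3 at 400 µM heme-albumin, and the hemeHpx libraries lie near those at 12.5 µM.

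Heme bound to hemopexin, the plasma protein that holds heme most tightly, was compared with heme-albumin at the same 200 µM. Srxn1 in hemeHpx libraries lay at 86.5 to 118 CPM (median 103, n = 10), above control by 0.44 ± 0.09, adjusted p = 0.00673, and Prdx1 at 568 to 959 CPM (median 663, n = 10), above control by 0.40 ± 0.09, adjusted p = 0.0197. These were the 2 of the 10 genes that passed against control, where 8.20% of all genes did. Txnrd1 stood at 258 to 352 CPM (median 309, n = 10) with a log2 fold change of 0.09 ± 0.06, adjusted p = 0.249. Set against heme-albumin directly, 4 genes were lower with hemeHpx and 1 was higher, where 25.9% of all genes passed, 12.9% lower and 13% higher. The log2 difference was -0.81 ± 0.09, adjusted p = 1.19e-09 for Srxn1 and -0.52 ± 0.06, adjusted p = 1.24e-09 for Txnrd1, and for both every hemeHpx library lay below every heme-albumin library, which held for 0.797% of all genes. It was -0.36 ± 0.09, adjusted p = 0.00484 for Prdx1 and -0.18 ± 0.06, adjusted p = 0.0173 for Txn1. Prdx6 was higher with hemeHpx, by 0.28 ± 0.07, adjusted p = 0.0057, and its mean of 1197 CPM lay near the 1126 of controls. Markers of several cell types moved beside these differences, with 4 of 5 microglial and 2 of 5 each of the astrocyte, oligodendrocyte and endothelial markers higher under hemeHpx than under heme-albumin, and none of the 6 neuronal ones called. The summed astrocyte markers had a median of 8132 CPM with hemeHpx and 7056 CPM with heme-albumin. The part of these markers, and of the astrocyte ones in the Prdx6 result, was not tested.

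Hemoglobin was compared with controls of the same time in batches 2 and 3, with the batch and the round in the fit. Srxn1, Txnrd1 and Prdx1 were the genes that rose. At 24 h the control libraries held Srxn1 at 115 to 180.5 CPM (median 124, n = 10), Hb 200 µM at 159 to 391 CPM (median 181, n = 10) and Hb 400 µM at 177 to 364 CPM (median 237, n = 10). The groups overlapped at both doses. Srxn1 rose at 400 µM, by 0.98 ± 0.16, adjusted p = 2.65e-05, while at 200 µM the log2 fold change was 0.58 ± 0.16, adjusted p = 0.195. With Hp of round E1 as a group of its own, a setting chosen after the data were seen, Srxn1 passed at 200 µM (0.65, adjusted p = 3.96e-04). Without library 10 of the Hb 200 µM group it stood at 0.46, adjusted p = 0.964. Txnrd1 rose at 400 µM by 0.46 ± 0.07, adjusted p = 5.73e-06, with every treated library above every control, as for 0.0607% of all genes, and Prdx1 by 0.54 ± 0.12, adjusted p = 0.00847. At 200 µM only Txnrd1 passed in the fit of all groups, by 0.33 ± 0.07, adjusted p = 0.0135. Without library 10 of the Hb 200 µM group, which held the highest Srxn1 level, Txnrd1 did not pass (0.30, adjusted p = 0.069). At 24 h these were 1 and 3 of the 10 genes, where 0.0971% and 0.522% of all genes passed.

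At 48 h Txnrd1, Srxn1 and Prdx1 passed at both doses of Hb, 3 of the 10 genes where 0.310% and 0.601% of all genes did. Srxn1 lay at 153 to 255 CPM (median 189, n = 10) at 200 µM and 150.2 to 237 CPM (median 192, n = 10) at 400 µM against 94.6 to 159 CPM (median 118, n = 9) in controls. Its log2 fold change was 0.66 ± 0.16, adjusted p = 0.0335 at 200 µM and 0.70 ± 0.16, adjusted p = 0.011 at 400 µM. Prdx1 rose by 0.63 ± 0.13, adjusted p = 0.00262 and 0.68 ± 0.13, adjusted p = 3.27e-04, and Txnrd1 by 0.36 ± 0.07, adjusted p = 0.00219 and 0.39 ± 0.07, adjusted p = 2.61e-04. Fitted within a single round, the log2 fold changes of the 3 genes stayed above 0 but fewer passed. At 400 µM and 24 h, round E1 alone left Srxn1 (0.95, adjusted p = 0.00286) and round E2 alone left Srxn1 (0.88, adjusted p = 6.23e-04) and Txnrd1 (0.57, adjusted p = 2.90e-06). At 400 µM and 48 h, round E1 left Prdx1 (0.65, adjusted p = 0.00175) and round E2 left Txnrd1 (0.54, adjusted p = 2.72e-04), and the same gene passed in each round at 200 µM. At 200 µM and 24 h none passed within either round.

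**Figure D2:**
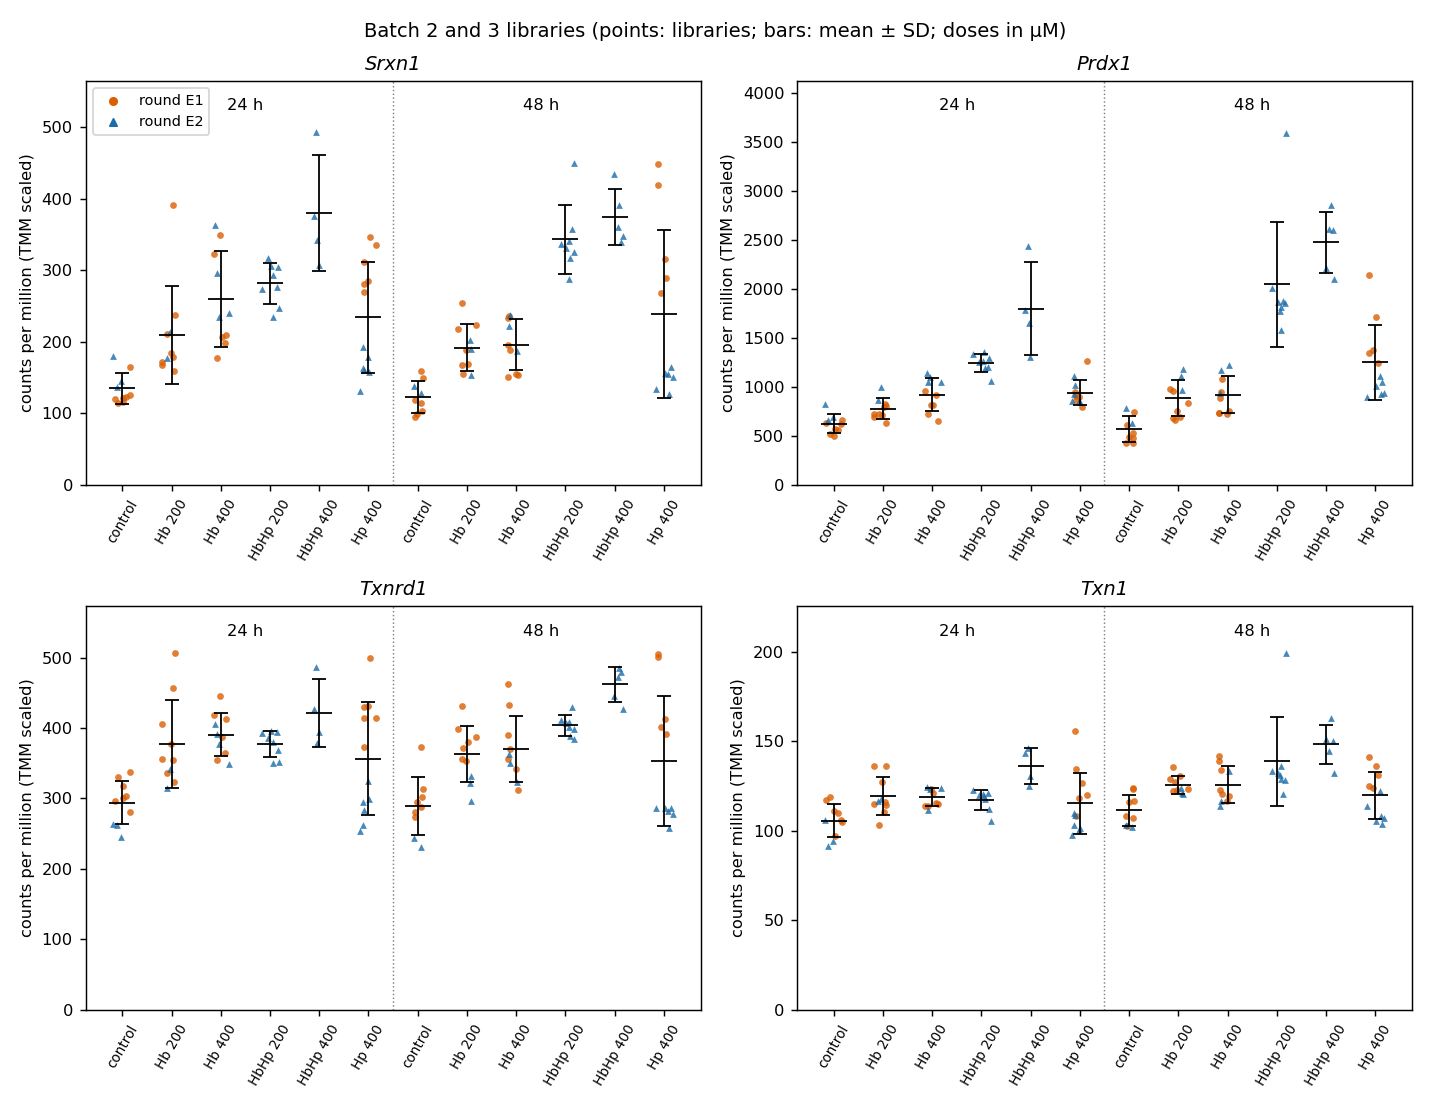
CPM (TMM scaled, linear axes from 0) of Srxn1, Prdx1, Txnrd1 and Txn1 in the 107 libraries of batches 2 and 3 that have a group, at 24 h on the left and 48 h on the right of each panel. Points are libraries, circles for round E1 and triangles for round E2, and bars the mean ± SD of each group of 4 to 12. HbHp lies highest for Prdx1, and Hp alone splits by round for Srxn1 and Txnrd1.

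With the hemoglobin-haptoglobin complex, Srxn1 and Prdx1 reached the highest levels of batches 2 and 3. The complex is known to be cleared through the receptor CD163, but the paper holds entry without CD163 to be possible in these slices. Controls of round E2, the only round with HbHp, held Srxn1 at 137, 180.5 and 146 CPM at 24 h and 129 and 138 CPM at 48 h. HbHp 200 µM lay at 235 to 317 CPM (median 285, n = 8) at 24 h and 287 to 450.3 CPM (median 334, n = 8) at 48 h. The libraries of HbHp 400 µM stood at 493, 376, 342 and 308 CPM at 24 h and 435, 339, 391, 360 and 348 CPM at 48 h. Every HbHp library at either dose and time lay above every control library of that time. At 24 h the log2 fold change was 1.13 ± 0.20, adjusted p = 7.23e-05 (within round E2 alone 0.88, adjusted p = 0.00101) at 200 µM and 1.56 ± 0.22, adjusted p = 2.53e-07 (within round E2 alone 1.31, adjusted p = 2.03e-06) at 400 µM. At 48 h it was 1.58 ± 0.20, adjusted p = 5.27e-09 (within round E2 alone 1.36, adjusted p = 8.25e-07) and 1.71 ± 0.22, adjusted p = 3.26e-09 (within round E2 alone 1.48, adjusted p = 2.67e-07).

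Prdx1 rose at both doses and times. The round E2 controls held 663, 827 and 688 CPM at 24 h and 625 and 780.4 CPM at 48 h, against 1055 to 1353 CPM (median 1260, n = 8) with HbHp 200 µM at 24 h and 1584 to 3587 CPM (median 1856, n = 8) at 48 h. At 400 µM the libraries stood at 2439, 1787, 1654 and 1299.8 CPM at 24 h and 2209, 2601, 2858, 2605 and 2098 CPM at 48 h. None of these ranges reached the controls. At 24 h the log2 fold change was 0.83 ± 0.15, adjusted p = 1.95e-04 (within round E2 alone 0.72, adjusted p = 0.0333) at 200 µM and 1.36 ± 0.17, adjusted p = 9.81e-09 (within round E2 alone 1.25, adjusted p = 1.04e-04) at 400 µM. At 48 h it was 1.68 ± 0.16, adjusted p = 2.16e-14 (within round E2 alone 1.49, adjusted p = 3.64e-06) at 200 µM and 1.95 ± 0.17, adjusted p = 3.72e-16 (within round E2 alone 1.76, adjusted p = 2.67e-07) at 400 µM, in the fit of both rounds a 3.87-fold higher level. Without library 1 of HbHp 200 µM at 48 h, which held 3587 CPM where the other 7 averaged 1824 ± 129 (SD), the value at 200 µM and 48 h was 1.51, adjusted p = 2.53e-13.

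Txnrd1 and Txn1 followed the same order at smaller sizes. Txnrd1 in the round E2 controls stood at 263, 264 and 245 CPM at 24 h and 232 and 244 CPM at 48 h. With HbHp 400 µM it stood at 487, 426, 378 and 394 CPM and 446, 479, 486, 473 and 426 CPM, all above the controls of both rounds. Its log2 fold change at 200 µM was 0.59 ± 0.09, adjusted p = 1.95e-06 at 24 h and 0.74 ± 0.09, adjusted p = 7.84e-10 at 48 h, and at 400 µM 0.75 ± 0.10, adjusted p = 3.63e-08 and 0.94 ± 0.10, adjusted p = 1.88e-12. Within round E2 these differences were 0.57, 0.76, 0.73 and 0.95 in the same order, and all passed. Txn1 rose by 0.47 ± 0.08, adjusted p = 2.49e-05 at 24 h and 0.53 ± 0.08, adjusted p = 3.29e-07 at 48 h with 400 µM, and by 0.43 ± 0.07, adjusted p = 8.45e-06 with 200 µM at 48 h. Its call with 200 µM at 24 h (0.26 ± 0.07, adjusted p = 0.0266) was lost within round E2 (0.29, adjusted p = 0.167). It was also lost with Hp of round E1 as a group of its own (0.22, adjusted p = 0.0876).

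In all, 4 of the 10 genes passed with HbHp 200 µM and 400 µM at 24 h, and 4 and 5 at 48 h, where 1.93%, 5.15%, 11.9% and 11.9% of all genes did. Genes lying wholly above the controls numbered 3, 4, 3 and 4 of the 10, where the shares of all genes were 0.425%, 1.93%, 1.15% and 3.10%. The fifth gene at 400 µM and 48 h was Prdx5, at 127, 186, 175, 173 and 133 CPM against 139.5 and 128 in round E2 controls and a log2 fold change of 0.38 ± 0.12, adjusted p = 0.0205. It was not called within round E2 (0.27, adjusted p = 0.416), nor without any 1 of libraries 2, 3 or 4 of the group (adjusted p from 0.0737 to 0.0826). Sums of microglial markers stood differently against the round E2 controls at the 2 times. At 24 h their summed level had medians of 142 CPM with HbHp 200 µM and 173 CPM with 400 µM, against 106 CPM in the 3 round E2 controls (102 to 225). At 48 h it ran from 146 to 242 CPM with HbHp 200 µM and from 146 to 317 CPM with 400 µM, and every HbHp library lay below both round E2 controls, at 354 and 498 CPM. Over the 9 controls of both rounds at 48 h it ran from 56.7 to 498 CPM (median 166). In the fit none of the 5 microglial markers was called with HbHp 200 µM at 48 h. With 400 µM 1 of the 5 microglial markers was lower, where 11.9% of all genes passed. Summed neuron markers at 48 h ran from 439 to 661 CPM with HbHp 200 µM and from 398 to 498 CPM with 400 µM. These too lay below both round E2 controls, at 724 and 878 CPM. Over the 9 controls of both rounds the neuron sum ran from 421 to 878 CPM, and none of the 6 neuron markers was called at either dose. The part of the microglial and neuron markers in these results was not tested.

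**Figure D3:**
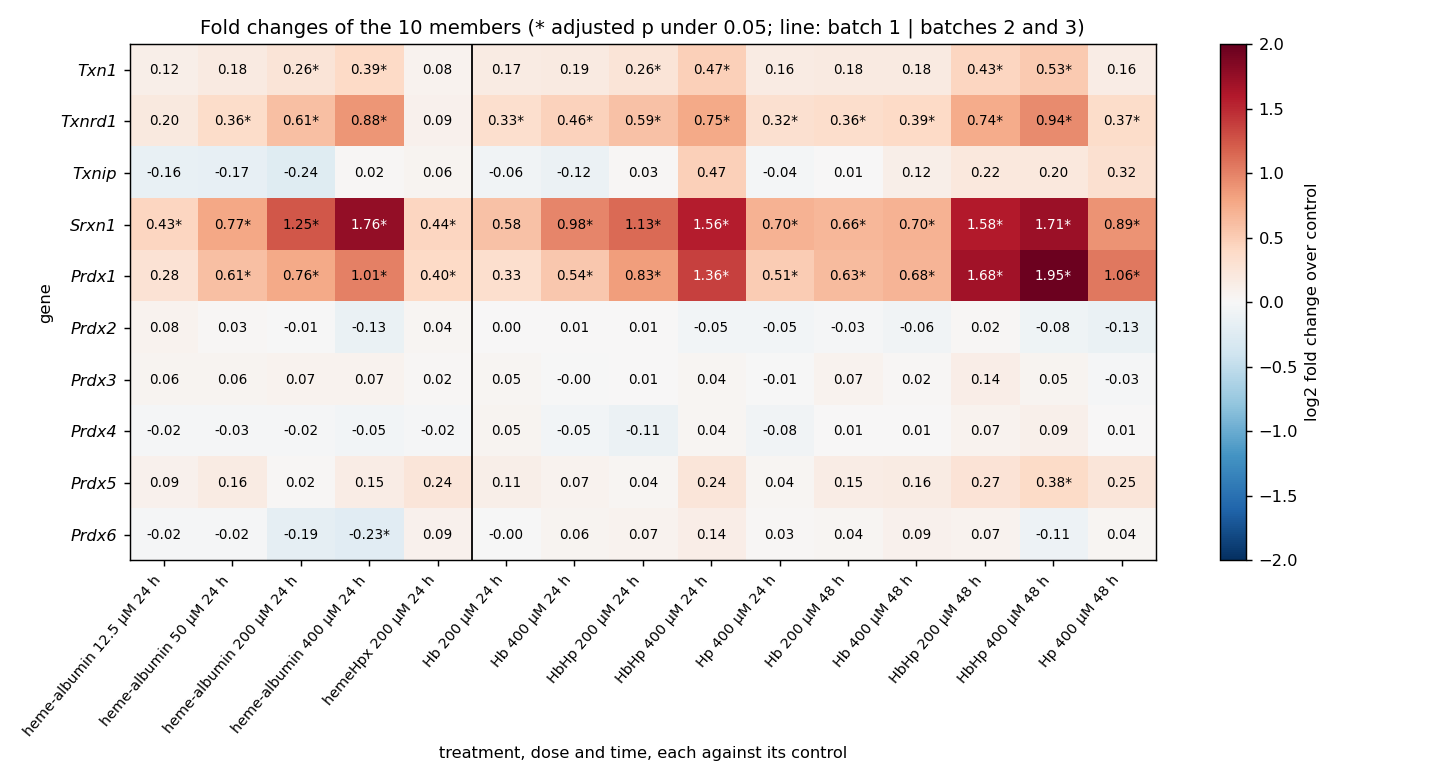
Log2 fold changes of the 10 genes (rows) for each treatment, dose and time against its control (columns), with batch 1 left of the line and batches 2 and 3 right of it, on a symmetric colour scale around 0 that ends at 2. An asterisk marks an adjusted p under 0.05. Srxn1, Prdx1 and Txnrd1 carry the changes, Txn1 joins them at 200 and 400 µM heme-albumin and with HbHp, and Prdx2 to Prdx4 stay between -0.13 and 0.14. The Hp columns pool rounds that differ.

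Haptoglobin alone at 400 µM differed between the rounds, so that its pooled values describe neither. Every Hp library was of batch 3. Of the round E1 controls, 6 were of batch 2 and 1 of batch 3 at each time. The log2 fold changes of Hp in round E1 therefore rest largely on the batch term of the fit. In round E1 at 24 h Srxn1 lay at 269 to 347 CPM (median 298, n = 6), against 115 to 164 CPM (median 122, n = 7) in controls of that round, a log2 fold change of 1.16 ± 0.15, adjusted p = 9.33e-08. In round E2 it lay at 132 to 193 CPM (median 162, n = 6) against 137, 180.5 and 146 CPM in the 3 controls, and the log2 fold change was 0.16 ± 0.16, adjusted p = 0.866. The effects differed by 1.003 ± 0.17, adjusted p = 3.91e-04. At 48 h Srxn1 stood at 289.8, 268, 315, 449 and 419 CPM in the 5 libraries of round E1 and at 126 to 164 CPM (median 152, n = 6) in round E2. No library of one round reached the other. The share of all genes that parted in this way was not counted, and 68.0% of all genes differed by round in the main fit. The log2 fold changes at 48 h were 1.48 ± 0.16, adjusted p = 9.53e-12 in round E1 and 0.13 ± 0.16, adjusted p = 0.728 in round E2, and they differed by 1.35 ± 0.17, adjusted p = 4.13e-08.

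Txnrd1 followed Srxn1. With Hp its mean was 427 CPM in round E1 and 286 CPM in round E2 at 24 h, and 442 and 279.5 CPM at 48 h. The log2 fold changes in round E1 were 0.48 ± 0.08, adjusted p = 1.46e-05 at 24 h and 0.58 ± 0.08, adjusted p = 1.22e-07 at 48 h. The differences between the rounds were 0.37 ± 0.09, adjusted p = 0.0255 and 0.45 ± 0.09, adjusted p = 5.05e-04. Prdx1 levels with Hp lay close at 24 h, with means of 946 CPM in round E1 and 934 CPM in round E2, although its E2 controls stood higher. Its difference of effects was 0.41 ± 0.14, adjusted p = 0.214 at 24 h and 1.05 ± 0.15, adjusted p = 6.54e-07 at 48 h. In round E1 at 48 h Prdx1 rose by 1.54 ± 0.14, adjusted p = 1.07e-15, Txn1 by 0.24 ± 0.07, adjusted p = 0.0129, Prdx5 by 0.36 ± 0.12, adjusted p = 0.0209 and Txnip by 0.52 ± 0.18, adjusted p = 0.0384.

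In round E1, 4 of the 10 genes passed at 24 h (Txn1, Txnrd1, Srxn1 and Prdx1) and 6 at 48 h, where 1.77% and 17% of all genes did. In round E2 none passed at either time, where 0.0304% and 0.273% of all genes did, with 1392 and 2327 genes at an unadjusted p under 0.05. Genes whose effect differed between the rounds made up 0.340% of all at 24 h and 3.74% at 48 h, and 2 and 3 of the 10 were among them. The split was made after the values were seen. The term for the round itself moved with it: for Srxn1 it was -0.26 ± 0.08 (E2 over E1) in the fit of all groups and 0.11 with Hp of round E1 as a group of its own. The HbHp libraries are all of round E2, and in that second fit their effects over control were smaller. Srxn1 with HbHp 200 µM stood at 0.94 at 24 h and 1.35 at 48 h, and Prdx1 with HbHp 400 µM at 1.81 at 48 h. These still passed. Marker sums also differed between the rounds. With Hp, microglial medians were 58.9 CPM in E1 and 176 CPM in E2 at 24 h, and 142 and 295 CPM at 48 h. Controls went the same way, from 82.3 to 106 CPM at 24 h and from 137 to 426 CPM at 48 h. Oligodendrocyte medians with Hp were 23250 CPM in E1 and 31640 CPM in E2 at 24 h, and 18160 and 28970 CPM at 48 h. Neuron sums with Hp in round E2 ran from 448 to 544 CPM at 24 h and from 368 to 629 CPM at 48 h. The round E2 controls lay above them, at 623 to 700 CPM and 724 to 878 CPM. In round E1 the ranges of Hp and controls overlapped. The part of these markers was not tested. Pooled over rounds, Txnrd1, Srxn1 and Prdx1 were called at 24 h (0.32, 0.70 and 0.51, with 0.704% of all genes) and at 48 h (0.37, 0.89 and 1.06, with 10.8%).

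**Figure D4:**
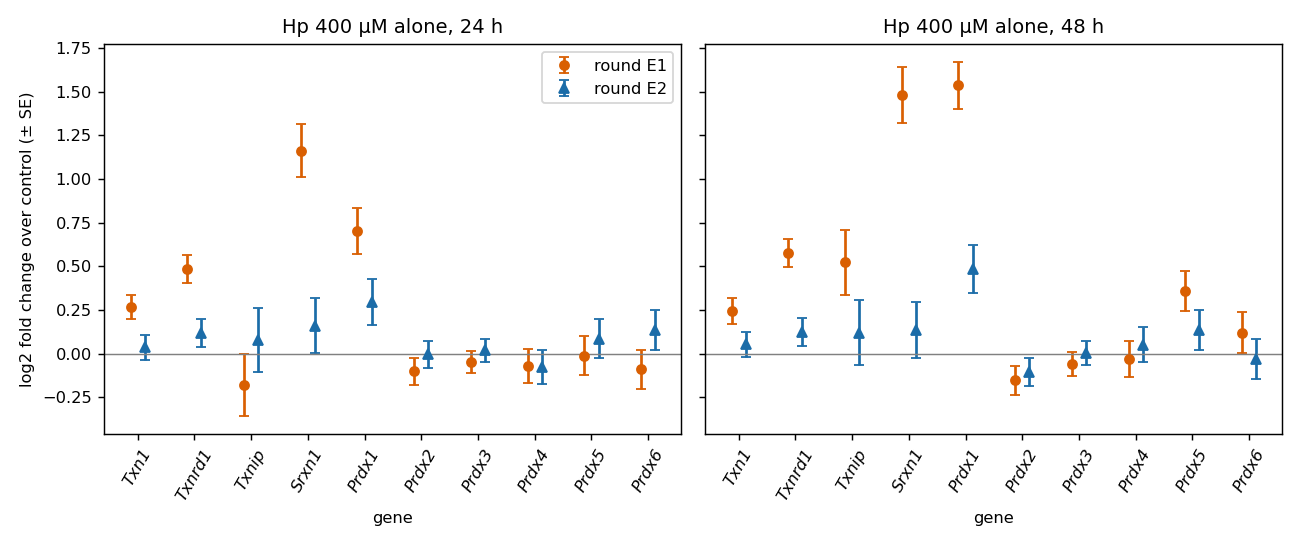
Log2 fold changes over control (± SE) of the 10 genes with Hp 400 µM alone, by round, at 24 h on the left and 48 h on the right. Round E1 stands at 1.16 for Srxn1 at 24 h and 1.54 for Prdx1 at 48 h, and in round E2 the largest value is 0.48, for Prdx1 at 48 h.

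HbHp was set against its parts at matched dose. At 200 µM and 24 h none of the 10 genes passed the test between HbHp and Hb, where 0.607% of all genes did. The differences were 0.55 ± 0.19, adjusted p = 0.167 for Srxn1 and 0.50 ± 0.15, adjusted p = 0.0941 for Prdx1, and within round E2 alone 0.54, adjusted p = 0.898 and 0.33, adjusted p = 1. Prdx1 was nevertheless above every Hb library in all 8 HbHp libraries, as were 0.316% of all genes, but the groups also differ in round and batch. Without Hb library 10 Srxn1 passed (0.75, adjusted p = 0.0404). At 48 h 4 of the 10 were higher with HbHp, where 4.98% of all genes passed and 3.14% were higher. Prdx1 was higher by 1.05 ± 0.15, adjusted p = 8.55e-06, Srxn1 by 0.92 ± 0.20, adjusted p = 0.00235 and Txnrd1 by 0.39 ± 0.09, adjusted p = 0.00354. Srxn1 and Prdx1 lay above every Hb library in all HbHp libraries at 48 h, as did 0.540% of all genes. Txn1, at 0.25 ± 0.07, adjusted p = 0.0203, was not called without HbHp library 1 (0.16, adjusted p = 0.183) or within round E2 (0.19, adjusted p = 0.432). Within round E2 the other 3 still passed, Prdx1 at 0.85, adjusted p = 0.0168, Srxn1 at 0.92, adjusted p = 6.74e-04 and Txnrd1 at 0.35, adjusted p = 0.0153. Of the 10 Hb libraries at 48 h, 8 were of batch 2, and with batch 3 alone, which leaves 2 of them, none of the 4 genes passed, while 2 did (Srxn1 and Prdx1) with the batch term without the round.

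At 400 µM HbHp was compared with Hp of round E2, the round they share, in the fit with Hp of round E1 as a group of its own. The share of all genes that passed in this comparison is not given here, and no single library was left out of it. At 24 h Srxn1 was higher by 1.21, adjusted p = 1.22e-07, Prdx1 by 0.94, adjusted p = 1.68e-06, Txnrd1 by 0.56, adjusted p = 2.36e-06 and Txn1 by 0.40, adjusted p = 3.85e-04. At 48 h the differences were 1.34, adjusted p = 4.49e-10 for Srxn1, 1.32, adjusted p = 1.97e-12 for Prdx1, 0.72, adjusted p = 6.18e-11 for Txnrd1 and 0.43, adjusted p = 1.35e-05 for Txn1. Against Hp of both rounds the 4 genes passed at both times with smaller differences, 0.86 and 0.82 for Srxn1, where 0.619% and 1.44% of all genes did. At 24 h these pooled calls rested on library 1 of HbHp 400 µM, without which none of the 4 passed, and without library 2 only Txnrd1 and Prdx1 did. These comparisons, and those with control, share the HbHp libraries.

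Whether the effect changed between 24 h and 48 h was tested as a difference of effects at 200 µM. For Hb no gene in the whole table passed in edgeR or DESeq2 (118 at an unadjusted p under 0.05 in edgeR), and Prdx1 stood at 0.29 ± 0.18, adjusted p = 1. For HbHp none of the 10 passed, where 0.0121% of all genes did. Prdx1 came nearest, with an effect larger at 48 h by 0.84 ± 0.19, adjusted p = 0.0687. It was called under 7 other settings, for example with Hp of round E1 as a group of its own (0.82, adjusted p = 0.00296), and stood at 0.69, adjusted p = 0.404 without HbHp library 1 and at 0.77, adjusted p = 0.604 within round E2 alone. The corresponding differences were 0.45 ± 0.24, adjusted p = 0.509 for Srxn1 and 0.15 ± 0.11, adjusted p = 0.629 for Txnrd1.

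Prdx2, Prdx3 and Prdx4 passed against control in none of the 15 comparisons of treatment, dose and time, with log2 fold changes from -0.13 to 0.14. Their group medians were narrow. Prdx3 ran from 58.5 CPM in batch 1 controls to 67.6 CPM with HbHp 400 µM at 48 h, Prdx2 from 177 CPM with Hb 400 µM at 48 h to 206 CPM with HbHp 200 µM at 24 h, and Prdx4 from 34.1 CPM with Hb 400 µM at 24 h to 43.4 CPM with HbHp 400 µM at 48 h. The standard errors of these fold changes lay between 0.05 and 0.11. Prdx6 did not pass with Hb, HbHp or Hp, and stood at -0.11 ± 0.12, adjusted p = 0.643 with HbHp 400 µM at 48 h.

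Txnip, the inhibitor of the system, passed against control in none of the 15 comparisons that pool the rounds. Taken by round, it rose with Hp of round E1 at 48 h (0.52 ± 0.18, adjusted p = 0.0384) and stood at 0.12 ± 0.19, adjusted p = 0.795 in round E2, and the difference between the rounds did not pass (0.40 ± 0.20, adjusted p = 0.292). In batch 1 its libraries lay at 45.4 to 116 CPM (median 79.9, n = 10) in controls, 44.3 to 90.3 CPM (median 66.8, n = 10) with heme-albumin 200 µM and 39.6 to 111 CPM (median 67.8, n = 10) at 400 µM. These ranges overlapped throughout, and the log2 fold change was -0.24 ± 0.16, adjusted p = 0.367 at 200 µM and 0.02 ± 0.16, adjusted p = 0.942 at 400 µM. In batches 2 and 3 at 24 h it lay at 66.96 to 131 CPM (median 91.5, n = 10) in controls and stood at 206, 151, 135 and 108 CPM with HbHp 400 µM. The log2 fold change was 0.47 ± 0.20, adjusted p = 0.175. At 48 h it lay at 58.9 to 143 CPM (median 118, n = 9) in controls and 129.7 to 208 CPM (median 145, n = 8) with HbHp 200 µM, of which 4 of 8 libraries exceeded the highest control, with a log2 fold change of 0.22 ± 0.18, adjusted p = 0.467. Round E2 stood above E1 for Txnip by 0.29 ± 0.07, adjusted p = 3.69e-04, in the fit where 68.0% of all genes differed by round.

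**Figure D5:**
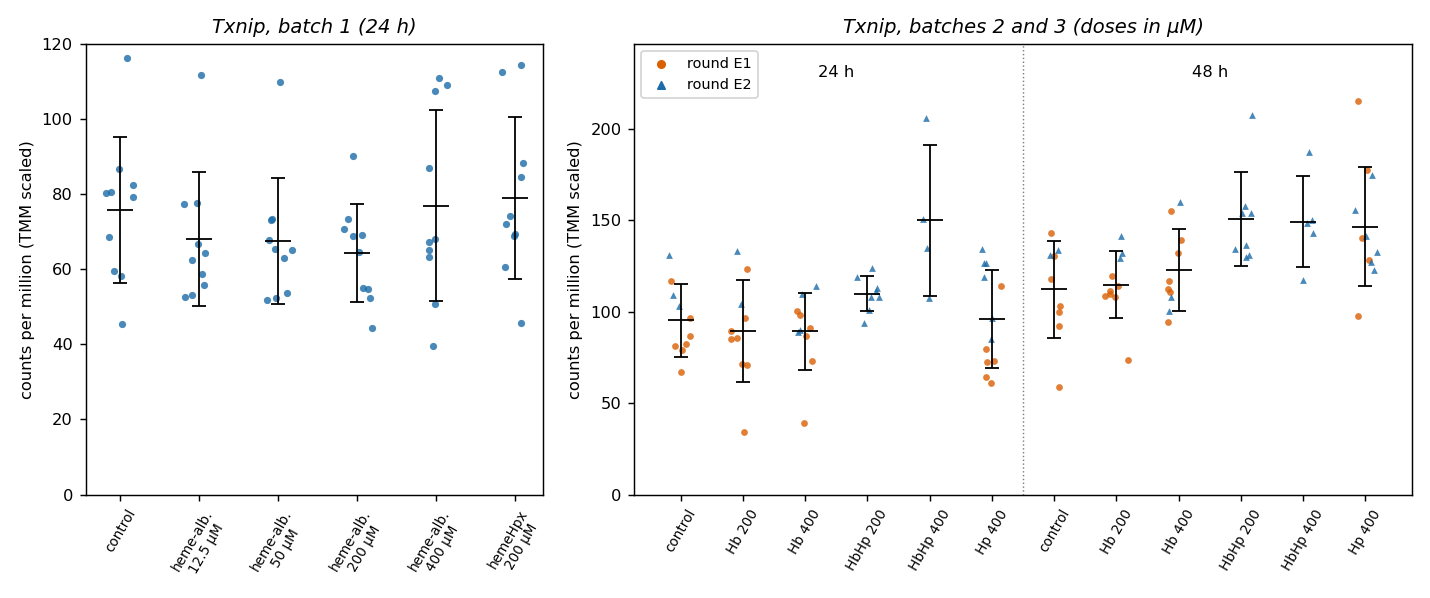
CPM (TMM scaled, linear axes from 0) of Txnip in batch 1 at 24 h (left) and in batches 2 and 3 at 24 h and 48 h (right). Points are libraries, with circles for round E1 and triangles for round E2 on the right, and bars the mean ± SD. The treated groups of batch 1 overlap the controls, whose libraries run from 45.4 to 116.

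Wider genes of the pathway were read from a list of 29: mitochondrial and related thioredoxins and reductases, glutaredoxins, methionine sulfoxide reductases, ribonucleotide reductase, sestrins, and the catalase, superoxide dismutase and glutathione-dependent enzymes beside them. All 29 passed the filter. With heme-albumin 200 µM 7 rose and 3 fell, where 6.98% and 6.60% of all genes did, with a median log2 fold change of -0.04 beside -0.01 for all genes, and with hemeHpx 2 rose, where 3.77% of all genes did. Sesn2, a sestrin of the stress response, rose with heme-albumin by 0.70 ± 0.09, adjusted p = 1.08e-07, and Gstp1, a glutathione transferase, by 0.47 ± 0.07, adjusted p = 4.45e-06. Sesn1, another sestrin, fell by 0.43 ± 0.09, adjusted p = 5.62e-04. With hemeHpx the 2 were Gstp1 (0.33 ± 0.07, adjusted p = 0.0145) and catalase, Cat (0.15 ± 0.05, adjusted p = 0.0476). With Hb 200 µM none of the 29 passed at either time.

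With HbHp 200 µM 2 of the 29 rose at 24 h, where 1.66% of all genes did, and 5 rose and 2 fell at 48 h, where 7.04% and 4.85% did. Cat, which breaks down hydrogen peroxide in peroxisomes, rose by 0.57 ± 0.09, adjusted p = 4.65e-05, at 24 h and by 0.79 ± 0.10, adjusted p = 2.18e-09, at 48 h, from a control mean of 156 CPM to 280.2 CPM. Txnl1, a thioredoxin-like protein, rose at 24 h by 0.21 ± 0.05, adjusted p = 0.0192. At 48 h Gstp1 rose by 0.55 ± 0.13, adjusted p = 0.00262, and Rrm2, the small subunit of ribonucleotide reductase and a marker of dividing cells, fell by 0.49 ± 0.12, adjusted p = 0.00321. Of a second list of 7 genes around Txnip (its transcription factors, related arrestins and a glucose transporter), 2 rose and 1 fell with heme-albumin 200 µM, where 6.98% and 6.60% of all genes did. None passed with hemeHpx, where 8.20% of all genes did, or with Hb 200 µM, where 0.0971% did at 24 h and 0.310% at 48 h. With HbHp 200 µM none passed at 24 h and 2 rose at 48 h, where 7.04% of all genes rose. Mlxipl, which encodes ChREBP, fell with heme-albumin at a low level, from 3.65 to 2.05 CPM (-0.83 ± 0.21, adjusted p = 0.00499). Slc2a1, the glucose transporter GLUT1, rose with HbHp at 48 h by 0.40 ± 0.10, adjusted p = 0.00301. For the genes of both lists values within round E2 alone are not given, and the control mean beside HbHp covers both rounds. Of the 29 genes 21 differed by round, and of the 7 genes 5 did, where 68.0% of all genes did.

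Group means of the 10 genes were compared over the 18 groups, with batch 1 and batches 2 and 3 each centred on its own mean. Srxn1 ran with Txnrd1 (Pearson's r = 0.948) and Prdx1 (0.897), and Txn1 with Txnrd1 (0.900). Txnip ran with Prdx4 (0.899) and less with Srxn1 (0.382), and Srxn1 with Prdx2 at 0.092. These are descriptions over groups that share batches, rounds and libraries of control. Among 14076 genes, those whose pattern was most like Srxn1 were Sqstm1 (0.975), the autophagy receptor p62, Lrrfip2 (0.974), Ypel5 (0.970), the proteasome subunit Psma5 (0.970) and the heme transporter Slc48a1 (0.969). For Txnrd1 they were Nploc4 (0.966), Osgin1 (0.966), the proteasome subunits Psmd1 (0.964) and Psmd11 (0.961) and Gclm (0.954), a subunit of the enzyme that starts glutathione synthesis. For Txnip they were Emp1 (0.969), Fxyd5 (0.962), the annexins Anxa2 (0.957) and Anxa1 (0.956) and Slc22a4 (0.956).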

How the data were processed

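Bulk mRNA was sequenced from mouse brain slice cultures (Illumina TruSeq mRNA libraries, per the labels). The deposited values are raw read counts per gene, which the authors made with featureCounts on GRCm39 according to the submitters' processing notes. The aligner, the featureCounts version and the strand setting are not given in the sources used here. The batches are the 3 order codes of the labels, and the round (E1 or E2) comes from the library names. The hemeHpx libraries have titles that name haptoglobin, whereas their tags and library names give hemopexin, and the tag was followed. A further 20 libraries tagged HbHpx 400 µM with titles that name hemoglobin-haptoglobin, whose library names read Hpx400 in round E1 and HbHpx400 in round E2, and 1 control whose labels give 2 times, were left without a group and entered no comparison. No pair of libraries within a group differed by as little as sampling noise (630 pairs, lowest chi-square per degree of freedom 3.48).

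Counts were tested with edgeR 4.0.16 (limma 3.58.1, R 4.3.3) by the quasi-likelihood test after TMM scaling and filterByExpr (minimum count 10, minimum total 15). The 60 libraries of batch 1 were fitted without covariates over 15554 genes, and the 107 grouped libraries of batches 2 and 3 with batch and round as terms over 16473 genes. P-values were adjusted by Benjamini-Hochberg over all genes tested in the fit, with a threshold of 0.05, and the standard error of a log2 fold change was taken as its size over the square root of F. Levels are TMM-scaled CPM, and means on the log2 scale used a prior count of 2. Totals of 11038484 to 54174784 counts per library set the precision. The fitting code was tested on simulated counts. Figures were drawn with matplotlib 3.10.9 in Python 3.11.15.

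The members and the gene lists were chosen with earlier results of these data known. All 10 members are named. From the 2 pathway lists, up to 4 genes per main comparison are named, those with the largest absolute log2 fold change that passed the test and averaged 1 CPM or more, and for Srxn1, Txnrd1 and Txnip the 5 genes with the highest correlation over 18 group means. The antioxidant core was a planned motif, and the AP-1 type and carbohydrate response motifs were added after the data were seen. Alternatives were DESeq2 1.42.0, RLE scaling, other filters on low counts, a correction for GC content (10 bins) and length (5 bins), a replicate block, subsets by batch, round or group, and leaving out single libraries.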

Additional observations from a re-analysis of the deposited data

Results flagged for a closer look

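Of 160 sets of libraries of 1 gene and 1 group, 20 had a lowest or highest library farther from its neighbour than Dixon's 95% critical value allows, where chance flags about 1 in 20 groups. Library 1 of HbHp 200 µM at 48 h carried 7 of them, as the highest of 8 libraries for Txn1 (199.7 CPM), Txnip (207.7), Prdx1 (3587), Prdx2 (298.1), Prdx3 (108.1), Prdx4 (71.51) and Prdx5 (224), whereas its Txnrd1 level of 399 CPM lay within the 383.8 to 430.2 of the others. It held 30215855 counts, its TMM factor was 0.949 where the others had 0.961 to 0.986, and its summed neuron markers were 660.6 CPM against 438.7 to 605 in the others. The part of these values in its levels was not tested. Library 10 of Hb 200 µM at 24 h had the group's lowest Txnip (34.46 CPM) and Prdx6 (558.6) and its highest Srxn1 (391.4), and library 6 of Hb 200 µM at 48 h the lowest Txnip (73.78) and Prdx6 (697.8).

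The remaining libraries that stood apart did so for single genes, or for 2. In batch 1 these were control library 13 with low Txnrd1 (244.2 CPM), library 8 of heme-albumin 12.5 µM with low Txnrd1 (262.8) and high Txnip (111.9), and library 5 of heme-albumin 50 µM with high Txnip (110) and Prdx4 (43.52). In batches 2 and 3 they were library 9 of Hb 200 µM at 24 h with high Prdx3 (75.03 CPM), library 3 of Hb 400 µM at 24 h with low Txnip (39.27) and control library 5 at 48 h with low Txnip (58.9).

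The difference between the Hp 400 µM effect in round E1 and that in round E2 passed its own test for 2 members at 24 h and 3 at 48 h. On the log2 scale the effect in E1 was higher by 0.37 for Txnrd1 and 1.003 for Srxn1 at 24 h, and by 0.45 for Txnrd1, 1.35 for Srxn1 and 1.05 for Prdx1 at 48 h.

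The 20 libraries tagged HbHpx 400 µM, which no comparison used, had medians above the control median of the same time for several members. At 24 h the median of 10 libraries was 122.2 CPM for Txn1 (controls 107.1), 432.6 for Txnrd1 (301.3), 143.1 for Txnip (92.7) and 217.6 for Srxn1 (125.4). At 48 h it was 253.7 CPM for Txnip (controls 117.6), 187.5 for Srxn1 (118) and 823.7 for Prdx1 (539.6). Their library names read Hpx400 in round E1 and HbHpx400 in round E2, and the medians pool both names. No test was made, because the labels leave their condition unsettled.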

How the results depend on the processing

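The number of members past the threshold moved by no more than 1.5 times in 223 of 264 cases under other settings and in 57 of 64 in which 1 library was left out. The cause of the changes was not tested, other than that subsets hold fewer libraries. With batch 3 alone the count was 0 for Hb 200 µM (1 in the reported fit), Hb 400 µM (3) and Hp 400 µM (3) at 24 h, 0 for each of them at 48 h (3 each), 0 for HbHp against Hb at 48 h (4) and 5 for the rounds (8). With the batch term without the round it was 0 for Hb 200 µM and Hp 400 µM at 24 h, 1 for Hb 200 µM at 48 h, 1 and 2 for HbHp against Hb at 24 h (0) and 48 h, and 1 and 2 for HbHp against Hp at 24 h and 48 h (4 each). In round E1 alone it was 0 for Hb 200 µM and 1 for Hb 400 µM at 24 h, 1 for each at 48 h and 5 for Hp 400 µM at 48 h. In round E2 alone it was 0 for Hb 200 µM and Hp 400 µM at 24 h, 1 for Hb 200 µM and Hb 400 µM at 48 h and 0 for Hp 400 µM at 48 h. With the Hp libraries of round E1 as groups of their own, a setting chosen after the data were seen like round E1 alone, it was 2 for Hb 200 µM at 24 h, 0 for Hp 400 µM at both times and 1 for the time difference of HbHp 200 µM (0). With control, Hb 200 and HbHp 200 libraries alone it was 2 for Hb 200 µM at 24 h and 1 for that time difference, which was also 1 under DESeq2 and with 10 counts in every library. The GC and length correction gave 0 at 12.5 µM heme-albumin (1) and 5 for Hp 400 µM at 48 h.

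Libraries of the same code were alike only in part, and the reported fits left the code out. After the fit, same-code pairs had a median correlation of 0.192 in batch 1, against -0.0101 for other pairs. In batches 2 and 3 the medians were 0.0611 and -0.005. Of the same-code pairs, 94 of 169 in batch 1 and 124 of 291 in batches 2 and 3 correlated above 0.1. In the same order, 21 of 60 and 14 of 107 libraries were closest to their own code. With the replicate block the count was 0 for Hp 400 µM at 24 h and 1 for the time difference of HbHp 200 µM. With the block and the GC correction together it was 0 for heme-albumin 12.5 µM and for Hp 400 µM at 24 h, 5 for Hp 400 µM at 48 h and 1 for that time difference.

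Leaving out 1 library at a time gave 0 to 2 members for Hb 200 µM at 24 h (0 without its library 10, 2 without control library 8), a lowest count of 0 for Hp 400 µM at 24 h (without control library 11), 1 for HbHp against Hb at 24 h (without Hb 200 µM library 10), 0 to 4 for HbHp against Hp at 24 h (0 without HbHp 400 µM library 1 and 2 without library 2) and 1 for the time difference of HbHp 200 µM (without control 48 h library 9). Single members kept direction and side of the threshold in 792 other cases, lost the call in 85, gained it in 27 and turned in 7. All 7 were of round E2 against E1: Srxn1 (-0.26) at 0.0369 with control, Hb 200 and HbHp 200 libraries alone and 0.11 with the Hp groups apart, Prdx1 (0.16) at -0.0842 with batch 3 alone, and Prdx2 (0.0041) at -0.11 in the 3 groups alone, -0.0534 with the GC correction, -0.0198 with the Hp groups apart and -0.0060 without a filter.

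Over all genes, DESeq2 called 2001 for hemeHpx (1276 in the reported fit), 14 at 12.5 µM heme-albumin (7), 25 for Hb 200 µM (16) and 199 for Hp 400 µM (116) at 24 h, 230 for HbHp against Hb at 24 h (100) and 6 for the time difference of HbHp 200 µM (2). The correction for GC and length called 109 for hemeHpx, 414 for heme-albumin 400 against 200 µM (197), 180 and 1031 for HbHp 200 µM at 24 h (318) and 48 h (1959), and 21 and 209 for HbHp against Hb at 24 h and 48 h (821).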

Other observations

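The control library whose labels give 2 times stood at 99.9 CPM for Txn1, 240.7 for Txnrd1, 106.6 for Txnip, 125.6 for Srxn1 and 672.6 for Prdx1. Of these, Txnrd1 lay below the 24 h controls of batches 2 and 3 (241.5 to 343.5 CPM) and within those at 48 h (236.1 to 383.2). In the 20 libraries tagged HbHpx 400 µM, Txnip lay at 100.5 to 232.1 CPM at 24 h and at 188.9 to 318.6 at 48 h, where the controls reached 142.5 at most. Their library names differ by round, with Hpx400 in all those of round E1 and HbHpx400 in all those of round E2, so that the name and the round cannot be told apart. At 48 h the 7 libraries named Hpx400 had a median Txnip of 254.5 CPM and the 3 named HbHpx400 one of 252.7. Prdx1 had a median of 745.7 CPM in the former and 1190 in the latter.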
